A study of Homo sapiens with 12 samples.

Results

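The subject here is the baseline transcriptome of MDA-MB-231 cells, a human triple-negative breast cancer line, as read on the 3 arrays of the vehicle group. These 3 arrays, titled as DMSO replicates 1 to 3, are all members of the group, out of 12 arrays in the series. The other 9 arrays held cells given rotenone, digoxin or manassantin, and no contrast with them is made. The cells were grown in DMEM with serum and antibiotics and were exposed to the solvent DMSO for 24 h before total RNA was taken. No source used here gives the DMSO dose or the oxygen level, and no untreated cells stand beside the group. It is 1 cell line. The labels do not state whether the 3 arrays stem from separate cultures, so the spread between them may be technical.

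As background, breast epithelium holds luminal cells, which carry simple keratins, E-cadherin and, in part, hormone receptors, and basal or myoepithelial cells, which carry stratified keratins and contractile genes. Carcinoma cells can lose junction genes and gain genes such as VIM under the transcription factors of the ZEB, SNAI and TWIST families, a change called epithelial-mesenchymal transition. MDA-MB-231 is widely used as a model of such cells, and is called triple-negative because it lacks the estrogen receptor, the progesterone receptor and amplified ERBB2. Tumour cells of this kind are also known for growth factor and integrin signalling, for secreting matrix, proteases and cytokines, and for high glucose use.

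All levels are deposited log2 values of probe sets, the groups of short probes by which this kind of array reads a transcript. Each gene with a symbol of its own was represented by its brightest probe set in the DMSO arrays, so that 11963 genes could be ranked. For 4310 of these, more than 1 probe set was on the array. A percentile states the share of these genes with a lower mean. The top 25% began at a mean log2 value of 8.53, the top 5% at 10.83, and the 40th percentile lay at 5.75. By construction 25% of all genes are in the top 25% and 40% lie below the 40th percentile, which is the background for every count of list members. Brightness also depends on the probes themselves, so a percentile ranks brightness and does not compare the amounts of 2 transcripts. With 1 group of 3 arrays there is no contrast and no test: every statement below is a value, a spread or a count.

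The 3 arrays were close to one another. Pearson's r across genes was 0.9982 to 0.9986 between pairs of arrays, where genes are not independent replicates. The median SD of a gene over the 3 arrays was 0.0678 on the log2 scale, with 0.0427 in the top 25% and 0.0991 below the 40th percentile. A gene's percentile moved by a median of 1.45 points over the 3 arrays. A difference between 2 genes is read below against their values on each array, since the same number of points spans a wider log2 range at the top of the ranking than in its middle.

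To give the low end of the scale a meaning, 53 genes restricted to other organs were ranked beside the rest, among them ALB of liver, INS of pancreatic islets and MYH7 of heart muscle. Their median percentile was 18.6, and 47 of 53 lay below the 40th percentile. The lowest were ADIPOQ of fat cells at the 1.88th percentile, GCG of islet alpha cells at 2.73 and PNLIP of the exocrine pancreas at 3.32. The highest were MBP, a myelin gene that also has transcripts outside the nervous system, at the 80.1st, AQP2 at 47.8, CYP3A4 at 44.1 and SFTPC at 42.8. A gene below the 40th percentile thus had a brightness that these organ genes also had. No detection call was used, so such a gene is called dim here and not absent.

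The 15 brightest genes gave the other end of the scale. They were the translation genes EEF1A1, RPS18, RPL41, RPL39, RPS23, RPS10, RPL37A, RPL23A and RPS19, the cytoskeletal genes ACTB, TUBA1B and TUBA1C, the chaperone gene PPIA, and the glycolytic genes GAPDH and LDHA. EEF1A1, the elongation factor that brings aminoacyl-tRNA to the ribosome, read 13.71, 13.67 and 13.66 on DMSO replicates 1, 2 and 3, the order kept for every set of 3 values below. Several of these genes have many processed pseudogenes and near-identical copies whose transcripts the same probes can bind.

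Promoter sequence was set beside brightness, since the 4 genes below span the scale. The 250 bases before the transcription start, read from RefSeq's promoter windows on build GRCh38.p14 and given 5′ to 3′ on the gene's strand, are shown in lower case with every CG dinucleotide in capitals. VIM (chr10:17227991-17228240, + strand, 99.8th percentile), the intermediate filament gene of mesenchymal cells, and DKK1 (chr10:52314031-52314280, + strand, 99.1st percentile), a secreted Wnt antagonist, stand for bright genes. CXCL8 (chr4:73740319-73740568, + strand, 60.9th percentile), a neutrophil chemokine, stands for an inducible gene of middle rank. PTPRC (chr1:198638790-198639039, + strand, 6.43rd percentile), the leukocyte phosphatase CD45, stands for a dim gene of another lineage.
VIM: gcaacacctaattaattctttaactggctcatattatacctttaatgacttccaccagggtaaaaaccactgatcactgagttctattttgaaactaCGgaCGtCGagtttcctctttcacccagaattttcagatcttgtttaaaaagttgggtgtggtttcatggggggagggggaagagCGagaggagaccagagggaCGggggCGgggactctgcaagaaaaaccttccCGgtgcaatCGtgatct
DKK1: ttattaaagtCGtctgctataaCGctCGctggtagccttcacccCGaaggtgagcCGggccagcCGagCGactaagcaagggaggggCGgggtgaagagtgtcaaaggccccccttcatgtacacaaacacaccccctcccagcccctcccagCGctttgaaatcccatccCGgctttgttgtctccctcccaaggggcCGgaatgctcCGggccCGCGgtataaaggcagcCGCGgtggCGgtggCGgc
CXCL8: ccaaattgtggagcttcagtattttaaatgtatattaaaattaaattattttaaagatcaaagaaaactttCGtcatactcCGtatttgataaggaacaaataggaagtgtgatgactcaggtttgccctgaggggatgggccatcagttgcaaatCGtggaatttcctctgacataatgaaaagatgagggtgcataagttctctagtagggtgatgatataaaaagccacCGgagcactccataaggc
PTPRC: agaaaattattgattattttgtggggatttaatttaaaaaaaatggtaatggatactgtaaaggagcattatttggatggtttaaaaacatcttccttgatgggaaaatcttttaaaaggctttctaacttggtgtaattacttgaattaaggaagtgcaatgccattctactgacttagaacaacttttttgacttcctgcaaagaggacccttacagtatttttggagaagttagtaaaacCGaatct
The VIM stretch holds 8 CG dinucleotides, DKK1 holds 18, CXCL8 holds 4 and PTPRC holds 1. The letters TATAAA, searched on both strands, occur in the DKK1 and CXCL8 stretches, and GGGCGG, the GC box, also on both strands, in those of VIM and DKK1. Over all 35116 promoter windows of the table, 10.7% of 250-base stretches hold TATAAA on either strand and 42.6% hold GGGCGG. A match is a description of letters and not a bound site.

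A stretch was found for 9438 of the 11555 ranked protein-coding genes, 81.7%, taking the mean over a gene's windows where it had several. Among genes of the top 25%, 85.7% had a stretch, the median ratio of observed to expected CG dinucleotides was 0.836, and 69.6% of stretches held GGGCGG. Between the 40th and 75th percentiles, with 83.9% covered, the ratio was 0.798 and the share 68.4%. Over all covered genes the values were 0.748 and 59.96%. The printed stretches of the bright genes VIM and DKK1 had ratios of 0.613 and 0.733, below the medians of the top 25% and of all covered genes. For all genes below the 40th percentile the comparison is void, because only 76.9% of them had a stretch. Within that range the lowest 10% of the ranking had 80.04% covered, with a ratio of 0.449 and a share of 34.8%, against 0.849 and 67.3% in the highest 10%. In the steps of 10 points from the 10th to the 40th percentile, coverage was lower, at 76.7%, 75.4% and 75.5%, and no values are given.

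**Figure D1:**
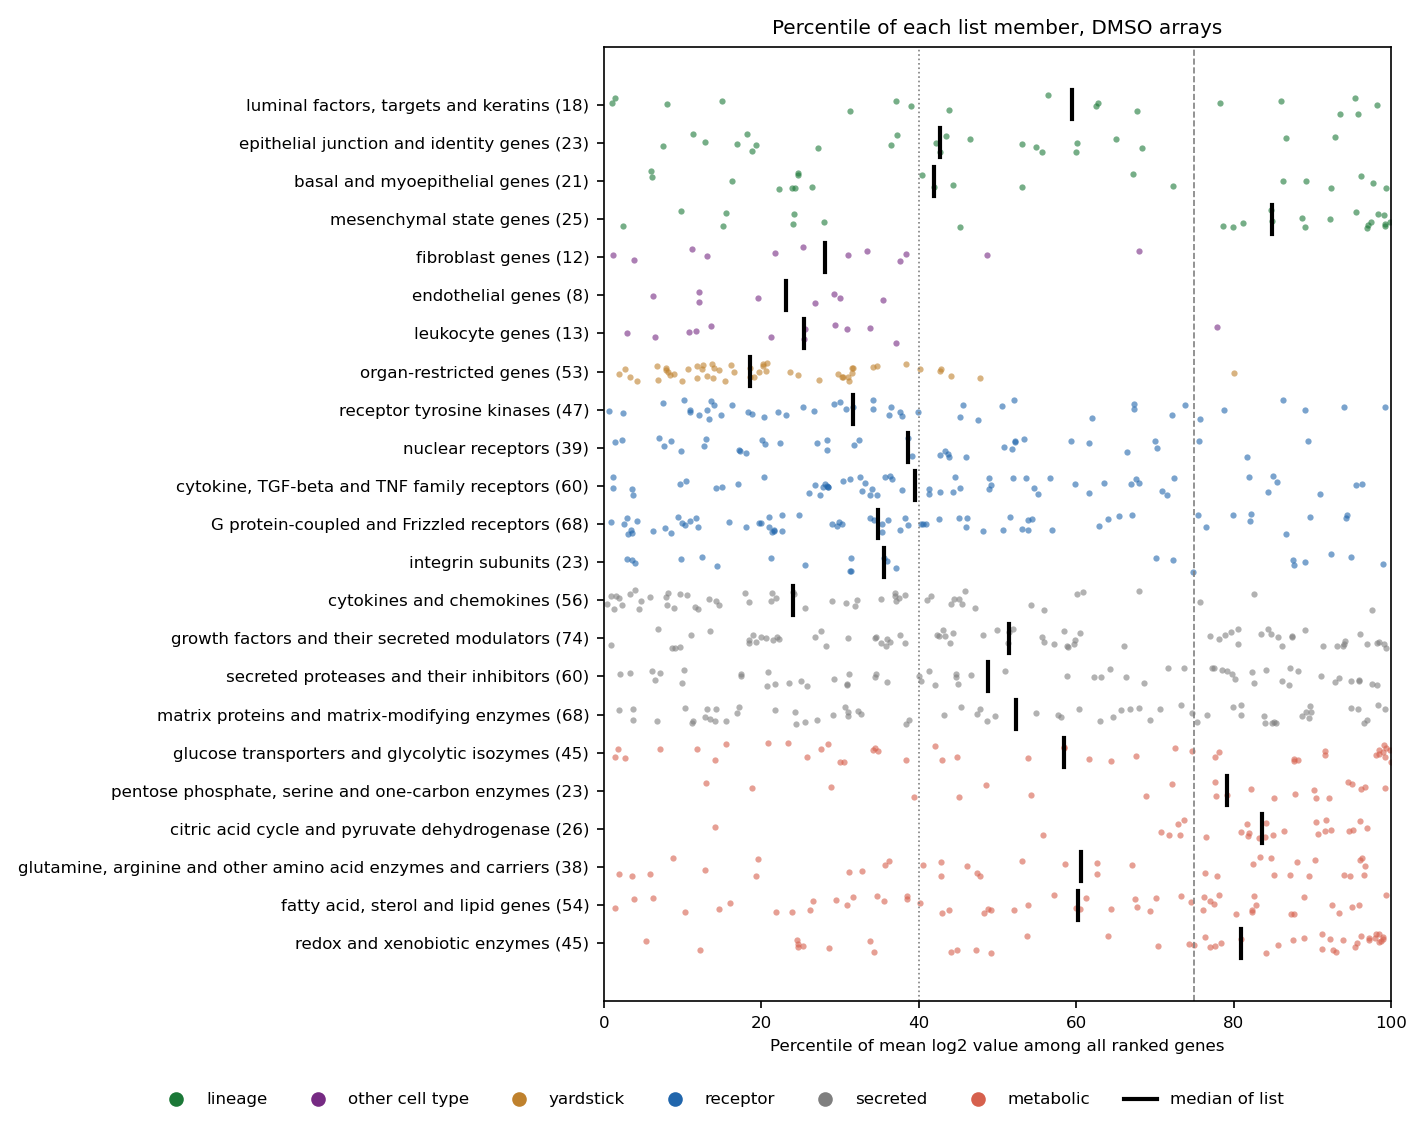
Percentile of every measured list member (points, with random vertical jitter) in the ranking of 11963 genes by mean log2 value over the 3 DMSO arrays. Black bars mark the list medians, the dashed line the 75th and the dotted line the 40th percentile, and numbers in brackets the members measured. The mesenchymal list has the highest median, 84.9, followed by citric acid cycle genes at 83.6, and organ-restricted genes have the lowest, 18.6.

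The lists ranged from a median percentile of 18.6 to 84.9, and several had shares near those of all genes. In the plot of percentiles by list, the mesenchymal list had 17 of 25 members in the top 25% and the citric acid cycle list 19 of 26, against 25% of all genes. Redox enzymes had 28 of 45 there and pentose phosphate, serine and one-carbon enzymes 14 of 23. At the other end, none of the 8 endothelial and none of the 12 fibroblast genes measured was in the top 25%, and cytokines and chemokines had 3 of 56. Several lists share members, for example AXL, EGFR, CAV1 and ITGA6, and the lists were chosen with earlier results of these data known.

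Mesenchymal genes were the brightest lineage group. VIM read 13.30, 13.19 and 13.22, with a mean of 13.24 ± 0.0568 (SD, n = 3 arrays), which is rank 21 of 11963 genes and just behind ribosomal protein genes. LGALS1, a secreted galectin, read 12.55, 12.54 and 12.54, and S100A4, a calcium-binding protein of motile cells, 12.44, 12.35 and 12.30. AXL, a receptor kinase, read 12.44, 12.51 and 12.55. These 4 genes stood at the 99.1st to 99.8th percentile. CD44, the hyaluronan receptor, followed at the 98.4th percentile with 11.84, 11.83 and 11.84, although its 8 probe sets ranged down to the 17.8th percentile.

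The transcription factors of the mesenchymal state split. ZEB1, which represses E-cadherin, read 9.27, 9.46 and 9.44 and lay at the 84.7th percentile. SNAI2, a factor of the same function, read 8.93, 8.71 and 8.85, the 78.6th percentile. TWIST1 was the lowest gene of the list, at 2.39, 2.49 and 2.52, the 2.38th percentile, and PRRX1 followed at the 9.82nd. ZEB2 and SNAI1 were also dim, at the 24.2nd and 24.0th percentiles. The values of ZEB1 and SNAI2 did not overlap those of ZEB2, SNAI1 and TWIST1, but come from different probes. ZEB1 had 3 probe sets, and their mean would place it at the 67.8th percentile.

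Not all genes that mark mesenchymal cells were bright. CDH2, neural cadherin, read 4.87, 4.84 and 4.68, the 27.9th percentile. CDH11, the cadherin of mesenchyme and osteoblasts, read 9.85, 9.83 and 9.89, the 89.0th. SPARC, a matrix glycoprotein of fibroblasts and bone, read 3.74, 3.89 and 3.95 on its brighter probe set, the 15.5th percentile, and TCF4 lay at the 15.1st on the brightest of its 7 sets. The list thus had 17 members in the top 25%, 7 below the 40th percentile and only TPM2 between.

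**Figure D2:**
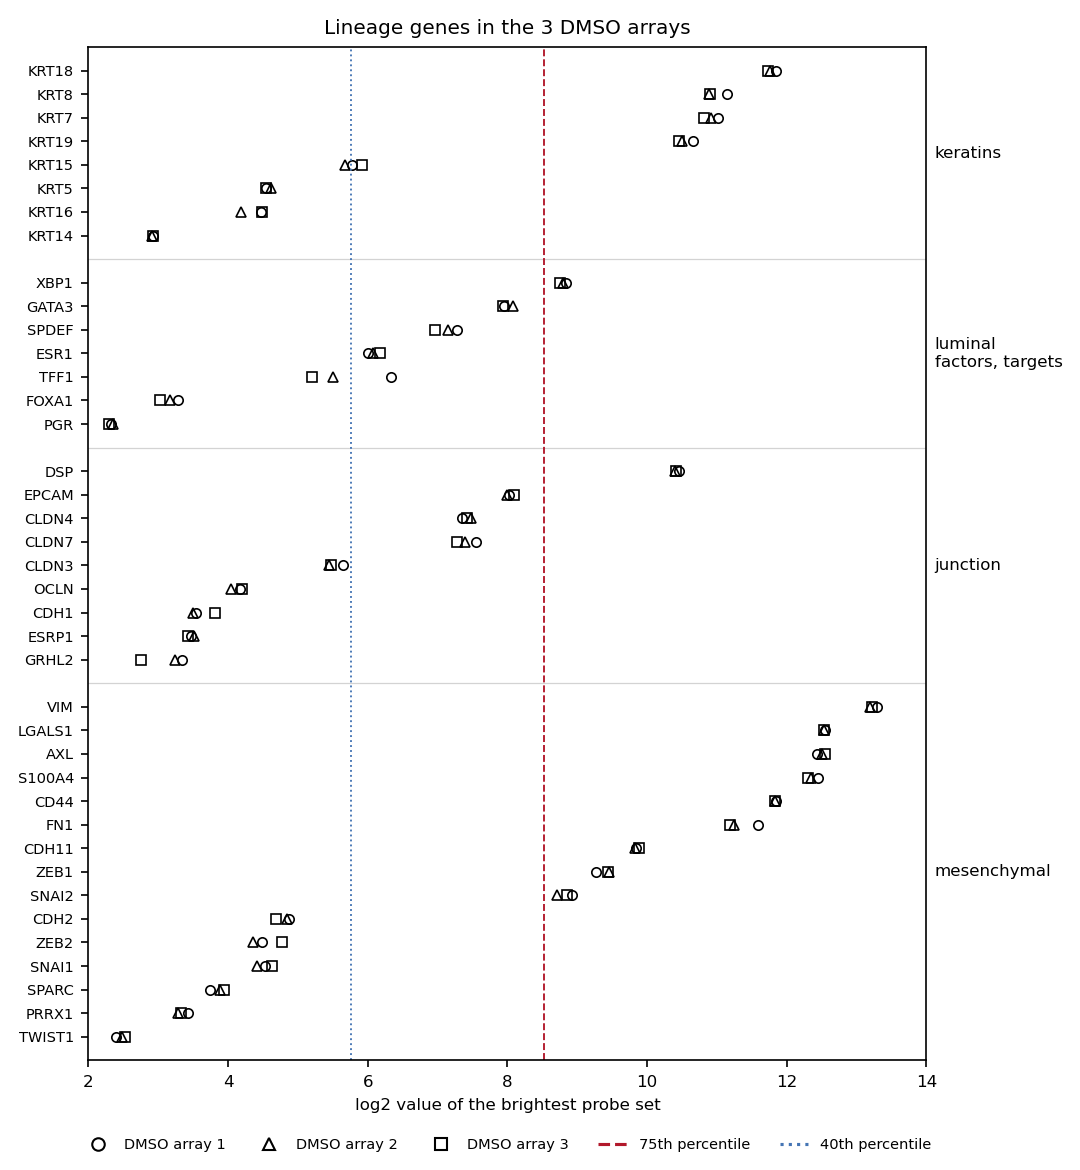
Log2 value of the brightest probe set of lineage genes on each of the 3 DMSO arrays (circle, triangle and square), by group. The dashed line is the level of the 75th and the dotted line that of the 40th percentile of all genes. Simple keratins and VIM lie right of the dashed line, and CDH1, KRT5, KRT14, PGR, FOXA1 and TWIST1 left of the dotted line, with all 3 symbols close together for most genes.

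Simple keratins of luminal and glandular epithelium were bright beside VIM. KRT18 read 11.85, 11.76 and 11.73, the 98.2nd percentile. Its partner KRT8 read 11.15, 10.89 and 10.91, the 95.8th, KRT7 11.01, 10.92 and 10.82, the 95.5th, and KRT19 10.66, 10.51 and 10.45, the 93.5th. All 4 were brightest on replicate 1. KRT7 had a second probe set at the 17.7th percentile.

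Luminal transcription factors and their targets ranked lower than these keratins. XBP1, a secretory pathway factor, was in the top 25% at the 78.3rd percentile, and MLPH, an adaptor of vesicle transport, at the 86.1st. GATA3, a factor of luminal differentiation, read 7.94, 8.08 and 7.93, the 67.7th percentile, but its probe set without a shared-sequence suffix would place it at the 36.3rd. FOXA1, the factor that opens chromatin for estrogen receptor, read 3.28, 3.17 and 3.02, the 8.04th percentile. SCGB2A2, mammaglobin, was the lowest of the list at the 1.08th. Of 18 luminal genes measured, 6 were in the top 25% and 7 below the 40th percentile, near the background shares.

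Receptors that define breast cancer subtypes were set against the label. PGR, the progesterone receptor, read 2.33, 2.35 and 2.30, the 1.46th percentile, under the lowest of the 53 organ-restricted genes at 1.88. ESR1, the estrogen receptor, reached the 43.9th percentile on the brightest of 9 probe sets, with 6.0, 6.08 and 6.17, while its dimmest set read 2.90, 2.65 and 2.65, the 4.41st percentile. The other 8 sets all lay below the 40th percentile. ERBB2 read 7.93, 8.02 and 7.92 on its brighter probe set, the 67.3rd percentile, below the top 25% on all arrays. The other ERBB2 set lay at the 16.3rd. The dim PGR, the ESR1 sets and the 2 ERBB2 sets are the values that bear on the triple-negative description. No receptor-positive line stands beside them.

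Junction and epithelial identity genes were mostly in the middle or lower part. CDH1, E-cadherin, read 3.54, 3.50 and 3.82, the 12.9th percentile, and its other probe set lay at a like percentile, 12.2. ESRP1, a splicing regulator of epithelial cells, lay at the 11.3rd and GRHL2, an epithelial transcription factor, at the 7.57th, the lowest of the list. OCLN of tight junctions lay at the 18.8th percentile and the claudin CLDN3 at the 37.2nd, whereas CLDN4 and CLDN7 reached the 60.1st and 59.9th. EPCAM, an epithelial adhesion molecule, read 8.02, 7.99 and 8.09, the 68.3rd, and PPL, a desmosomal plakin, lay at the 65.04th. DSP, the desmosomal plaque protein, read 10.46, 10.41 and 10.41, the 92.9th percentile, and with the protease inhibitor SPINT2 it was 1 of 2 members of 23 in the top 25%, 8.70% against 25% of all genes.

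Basal genes gave a divided list. CAV1, the coat protein of caveolae, read 12.65, 12.63 and 12.66, the 99.4th percentile, with CAV2 at the 97.7th, SFN, a 14-3-3 protein, at the 96.2nd and ITGA6 at the 92.4th. Among keratins of the list, KRT14 was dim at 2.93, 2.91 and 2.92, the 5.93rd percentile, as was KRT5 at 4.55, 4.61 and 4.54, the 24.7th. KRT16 lay at the 22.2nd and KRT15 at the 40.4th, and KRT17, KRT6B and the factor TP63 were not measured. DSC3, a desmosomal cadherin, lay at the 6.16th and CNN1, a smooth muscle gene of myoepithelium, at the 16.3rd. Of 21 members measured, 6 were in the top 25% and 9 below the 40th percentile. CD24, an epithelial surface protein, reached only the 43.4th percentile on the brightest of 6 sets, next to CD44 at the 98.4th.

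Markers of other cell types were dim. All 8 endothelial genes lay between the 6.23rd and 35.5th percentile, with CDH5, vascular cadherin, lowest at 2.95, 2.97 and 2.93. ROBO4, KDR, TEK and PECAM1 were the highest of them, at the 35.5th, 29.95th, 29.3rd and 26.8th, and TIE1 and EMCN stood just above CDH5, both at the 12.1st. Of 13 leukocyte genes, 12 lay below the 40th percentile, with LYZ at the 2.90th, PTPRC at the 6.43rd and TYROBP at the 10.8th. The T cell receptor genes CD3E and CD3D lay at the 33.8th and 30.9th, behind ITGB2. LAPTM5, a lysosomal membrane gene of blood cells, was the exception at 8.82, 8.81 and 8.66, the 77.9th percentile, with a second probe set at the 62.9th. Of 12 fibroblast genes, 10 lay below the 40th percentile. POSTN was lowest at the 1.12th, FAP lay at the 3.79th and LUM at the 11.2nd, while COL6A3 reached the 68.0th, COL1A1 the 48.6th, COL1A2 the 38.3rd and PDGFRB, a receptor of PDGF, the 37.6th. LAPTM5, COL6A3 and COL1A1 lay above AQP2 at the 47.8th, the highest organ-restricted gene after MBP, and the other genes of these 3 lists lay below it.

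Receptor tyrosine kinases were mostly dim, with a short bright end. Of 47 measured, 6 were in the top 25% and 31 below the 40th percentile, 12.8% and 66.0%. AXL, the receptor of GAS6, was by far the brightest, at the 99.2nd percentile on its brighter probe set. Its 3 values there did not overlap those of any other kinase of the list. The other AXL set had a mean of 8.45, the 73.9th percentile, below the top 25%. MET, the HGF receptor, read 10.56, 10.65 and 10.63, the 94.0th percentile. EPHA2, an ephrin receptor, read 9.89, 9.84 and 9.89, the 89.1st. EGFR, the receptor of EGF family ligands, read 9.52, 9.56 and 9.56, the 86.3rd, RYK, a Wnt co-receptor, 8.84 on each array, the 78.8th, and FGFR1 8.60, 8.57 and 8.59, the 75.8th. The FGFR1 value lay close to the bound of the top 25%.

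The choice of probe set mattered for these kinases. MET had 4 probe sets, and the other 3 lay between the 28.2nd and 35.5th percentile. EGFR had 6, of which the brightest pair stood at the 86.3rd and 72.1st and the other 4 at the 27.8th to 37.1st. Averaging the probe sets of each gene, 2 kinases instead of 6 would be in the top 25%. ERBB3, the partner of ERBB2 for neuregulins, read 4.87, 4.68 and 4.58, the 26.7th percentile, and ERBB4 lay at the 13.96th. The lowest kinases were EPHA7 at the 0.598th, ROR2 at the 2.42nd and MUSK, the kinase of the neuromuscular junction, at the 7.51st.

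**Figure D3:**
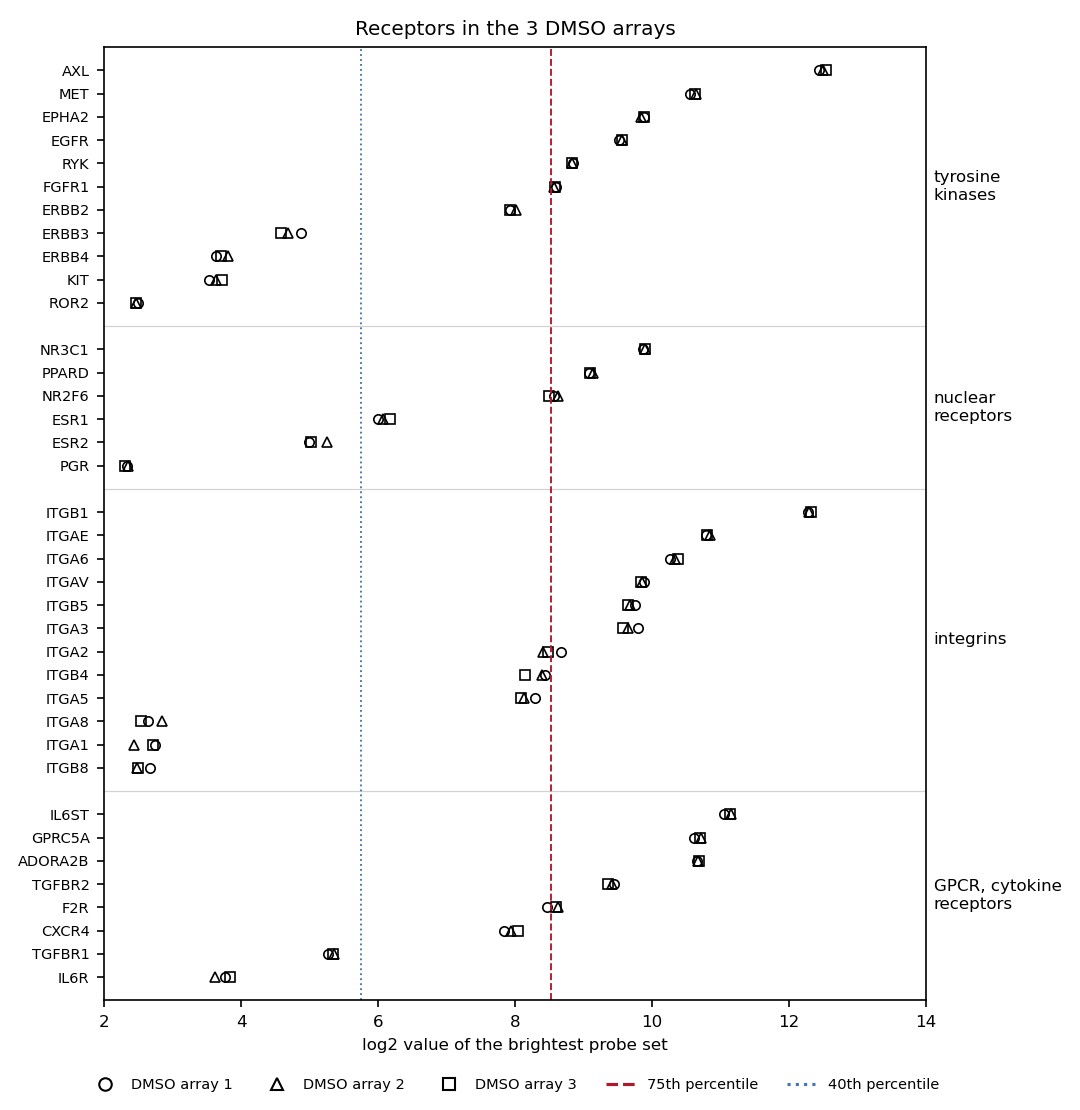
Log2 value of the brightest probe set of selected receptors on each of the 3 DMSO arrays, by family, with the levels of the 75th (dashed) and 40th (dotted) percentile of all genes. AXL and ITGB1 are the brightest kinase and integrin, NR3C1 the brightest nuclear receptor, and PGR, ROR2 and ITGB8 are among the dimmest.

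Nuclear receptors, the transcription factors bound by steroids, retinoids and lipids, had 3 of 39 members in the top 25%. NR3C1, the glucocorticoid receptor, read 9.87, 9.91 and 9.90, the 89.4th percentile, and all 4 of its probe sets lay at or above the 73.1st. PPARD, a fatty acid receptor, read 9.09, 9.14 and 9.09, the 81.7th, and NR2F6 8.57, 8.64 and 8.49, the 75.6th, so that replicate 3 fell below 8.53. RXRB, a shared partner of many of these receptors, followed at the 70.2nd. Beside PGR, the lowest were HNF4G at the 2.34th and ESRRG at the 6.96th. ESR2, the second estrogen receptor, lay at the 31.8th percentile on the brightest of 5 sets.

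Integrins, the receptors that bind cells to matrix, were either bright or dim. Of 23 subunits, 6 were in the top 25% and 14 below the 40th percentile, with 3 between. ITGB1, the beta subunit shared by most matrix-binding integrins, read 12.28, 12.30 and 12.33 on its brightest probe set, the 99.03rd percentile. Its other 4 sets lay between the 0.326th and 10.7th, so the choice of set decides this value. ITGAE read 10.79, 10.85 and 10.80, the 94.9th percentile. ITGA6, a laminin-binding subunit, read 10.27, 10.34 and 10.38, the 92.4th, and ITGAV, the vitronectin-binding subunit, 9.89, 9.86 and 9.85, the 89.1st. ITGB5 lay at the 87.7th and ITGA3, another laminin-binding subunit, at the 87.6th with 9.80, 9.65 and 9.57.

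The dim integrins included the leukocyte subunits ITGB2, ITGAL, ITGAM and ITGAX, at the 37.1st, 25.5th, 21.2nd and 12.5th percentiles. ITGB8 was lowest at 2.67, 2.49 and 2.49, the 2.90th percentile, with ITGA1, a collagen-binding subunit, at the 3.52nd and ITGA8 at the 3.98th. Among collagen and fibronectin receptors, ITGA2 lay at the 74.9th percentile, just under the bound of the top 25%, and ITGA5 at the 70.2nd. ITGAE, which pairs with ITGB7 on lymphocytes, was bright while ITGB7 lay at the 35.9th percentile.

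Cytokine, TGF-beta and TNF family receptors had 7 of 60 members in the top 25% and 30 below the 40th percentile. IL6ST, the signalling subunit shared by the IL6 family, read 11.06, 11.15 and 11.14, the 96.3rd percentile. TNFRSF21 read 10.93, 10.95 and 10.94, TNFRSF12A, the TWEAK receptor, 10.13, 10.07 and 10.09, and IFNGR2, a subunit of the interferon gamma receptor, 9.54, 9.42 and 9.45. The ligand-binding subunit IL6R was dim at the 14.2nd percentile, 3.77, 3.62 and 3.84. TGFBR2 read 9.44, 9.42 and 9.37, the 85.0th percentile, and its partner TGFBR1 5.26, 5.35 and 5.35, the 34.7th. The other TGFBR2 probe set lay lower, at the 23.1st, so the order of the pair depends on the set. The mean of the TGFBR2 sets would place it at the 60.7th. The lowest members were IL13RA2, GHR and BMPR1B, at the 1.11th, 1.17th and 3.57th percentiles.

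Among 68 G protein-coupled and Frizzled receptors, 9 were in the top 25% and 40 below the 40th percentile. GPRC5A, an orphan receptor induced by retinoic acid, read 10.62, 10.71 and 10.71, the 94.4th percentile, with its other probe set at the 90.03rd. ADORA2B, an adenosine receptor, read 10.66, 10.67 and 10.68, the 94.3rd, FZD7, a Wnt receptor, 9.87, 9.96 and 9.92, and ADGRE5, an adhesion receptor, 9.62, 9.56 and 9.52. F2R, the thrombin receptor, read 8.47, 8.62 and 8.60, the 75.5th percentile, and CXCR4, the receptor of CXCL12, 7.84, 7.95 and 8.05, the 67.1st. CXCL12 itself lay at the 25.5th. The lowest receptors were P2RY1, ADRB1 and CXCR2, at the 0.915th, 2.60th and 2.92nd percentiles.

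Of secreted proteins, cytokines and chemokines were dim as a group. Of 56 measured, 40 lay below the 40th percentile, 71.4% against 40% of all genes, with a median percentile of 24.1. MIF, a constitutively made cytokine, read 11.64, 11.57 and 11.52, the 97.6th percentile. CSF1, the growth factor of macrophages, read 9.29, 9.14 and 9.13, the 82.6th, and TNFSF10, the death ligand TRAIL, 8.92, 8.40 and 8.45, the 75.8th. TNFSF10 read above 8.53 on replicate 1 only. Averaging the probe sets of each gene, 1 cytokine instead of 3 would be there.

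Inflammatory cytokines had middle ranks at most. IL11, a cytokine of the IL6 family, read 7.71, 8.14 and 8.17, the 68.0th percentile, and was lowest on replicate 1. CXCL8, whose promoter stretch is printed above, read 7.33, 7.54 and 7.55, the 60.9th. CXCL1, a related chemokine, read 6.13, 6.24 and 6.20, the 45.1st, and IL6 6.16, 6.02 and 6.15, the 44.1st. Both CXCL1 and IL6 lay below the organ-restricted gene AQP2, at the 47.8th. TNF and CCL2 lay at the 8.14th and 3.90th percentiles, and the lowest members were IFNA2, IL10 and IL33, at the 0.364th, 0.965th and 1.28th.

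Growth factors and their secreted modulators had 25 of 74 members in the top 25% and 28 below the 40th percentile, 33.8% and 37.8%, near the background shares. IGFBP7, a binding protein of insulin-like growth factors, read 12.67, 12.59 and 12.55, the 99.3rd percentile. DKK1 read 12.42, 12.44 and 12.46, the 99.1st, and IGFBP4 11.95, 11.87 and 11.80. CCN1, a matrix-associated signalling protein, read 11.82, 11.77 and 11.84, the 98.2nd, with its other probe set near the same rank, and its relative CCN2 10.996, 11.05 and 11.11, the 96.0th. Their relatives CCN3 and CCN4 lay at the 37.7th and 8.66th. The lowest members were GREM1, a BMP antagonist, at the 0.924th percentile, WNT5A at the 6.93rd and CCN4.

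Ligands of the bright kinases differed in rank. GAS6, the ligand of AXL, read 10.71, 10.63 and 10.51, the 94.0th percentile, and its other probe set lay at the 81.3rd. Among EGFR ligands, TGFA lay at the 86.2nd and HBEGF at the 80.5th with 8.96, 8.98 and 9.03, EREG at the 55.7th, and EGF and BTC at the 27.6th and 18.5th. HGF, the ligand of MET, read 5.63, 5.63 and 5.56 on the brightest of 5 probe sets, the 38.3rd percentile. VEGFA, the main angiogenic factor, read 9.87, 9.91 and 9.84, the 89.1st, and VEGFC 8.81, 8.76 and 8.79, the 78.2nd, while their receptor KDR lay at the 29.95th. The mean over probe sets would move HBEGF to the 60.4th and VEGFA to the 71.9th percentile.

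Secreted proteases and inhibitors had 21 of 60 members in the top 25%. TIMP1, an inhibitor of matrix metalloproteinases, was the brightest at 11.91, 11.81 and 11.74, the 98.3rd percentile, followed by the serine protease PRSS23 at the 97.6th. The membrane-bound sheddases ADAM10 and ADAM9 read 11.03, 11.04 and 11.05 and 10.97, 11.04 and 11.09. PLAU, urokinase, read 10.12 on each array, the 91.1st percentile, and its receptor PLAUR 8.93, 8.96 and 9.0, the 80.2nd.

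The metalloproteinases themselves ranked below TIMP1. MMP14, a membrane-bound collagenase, read 8.75, 8.66 and 8.72, the 77.3rd percentile, and MMP1, the interstitial collagenase, 7.64, 7.68 and 7.87, the 64.3rd. The gelatinases MMP2 and MMP9 lay at the 30.9th and 34.5th percentiles. MMP12, ADAMTS5 and MMP13 were the lowest of the list, at the 1.99th, 3.33rd and 6.08th. Of the 3 further inhibitors of the TIMP family, TIMP3 lay at the 92.9th, TIMP2 at the 79.2nd and TIMP4 at the 34.6th percentile.

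Matrix proteins and matrix-modifying enzymes had 21 of 68 members in the top 25% and 28 below the 40th percentile. LGALS1 and LGALS3, galectins that bind matrix sugars, led at the 99.3rd and 98.3rd percentiles. FN1, fibronectin, read 11.58, 11.25 and 11.18, the 96.9th percentile. Of its 6 probe sets, 4 lay at or above the 94.9th, and the other pair at the 32.5th and 4.27th. COL13A1, a membrane collagen, read 11.12, 11.24 and 11.24, the 96.6th. THBS1, thrombospondin, read 10.73, 10.81 and 10.90, the 94.9th, with 5 probe sets down to the 29.7th.

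Basement membrane and fibrillar genes both spread widely. Among laminin chains, LAMC1, LAMB3, LAMA5 and LAMB1 lay at the 89.7th, 89.2nd, 85.4th and 81.0th percentiles, and LAMB2, LAMA2 and LAMA4 at the 63.0th, 29.1st and 25.6th. NID1 and NID2, the nidogens that link laminin to collagen IV, lay at the 12.9th and 6.74th. COL4A2 and COL4A1, the main collagen IV chains, lay at the 84.8th and 73.3rd, with COL4A1 at 8.37, 8.37 and 8.46. Of the fibrillar collagens, COL5A1 lay at the 74.7th, COL1A1, COL1A2 and COL3A1 at the 48.6th, 38.3rd and 13.2nd, and COL5A2 and COL11A1 at the 14.2nd and 10.4th. MGP, SPP1 and FBN2 were the lowest members, at the 1.89th, 3.65th and 3.73rd. Among collagen-modifying enzymes, PLOD3, PLOD2, P4HA1 and P4HA2 lay between the 76.6th and 85.2nd percentile and PLOD1 at the 69.4th, and the lysyl oxidases LOXL2, LOX and LOXL1 at the 95.8th, 79.9th and 54.9th.

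Glycolysis was led by 1 isozyme at most steps. GAPDH read 13.57, 13.54 and 13.51, and LDHA, which makes lactate from pyruvate, 13.32, 13.34 and 13.32, both above the 99.8th percentile. LDHB read 12.66, 12.65 and 12.66, the 99.4th, and LDHC, the testis form, 5.33, 5.30 and 5.22, the 34.2nd. ENO1, ubiquitous enolase, read 12.59, 12.47 and 12.47, the 99.2nd, ENO2 lay at the 78.2nd and ENO3, of muscle, at the 30.1st. PKM read 11.83, 11.71 and 11.74, the 98.1st, against PKLR, of liver and red cells, at the 23.4th. On the brightest probe sets, the groups of 3 values of the leading and the tissue-restricted isozymes did not overlap, as the plot of isozymes shows. They come from different probes, and the spread between arrays was small. The dimmest ENO1 set lay at the 51.2nd percentile, below ENO2, and the other PKM set at the 50.6th. The dimmest GAPDH and LDHB sets lay at the 99.8th and 99.4th.

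**Figure D4:**
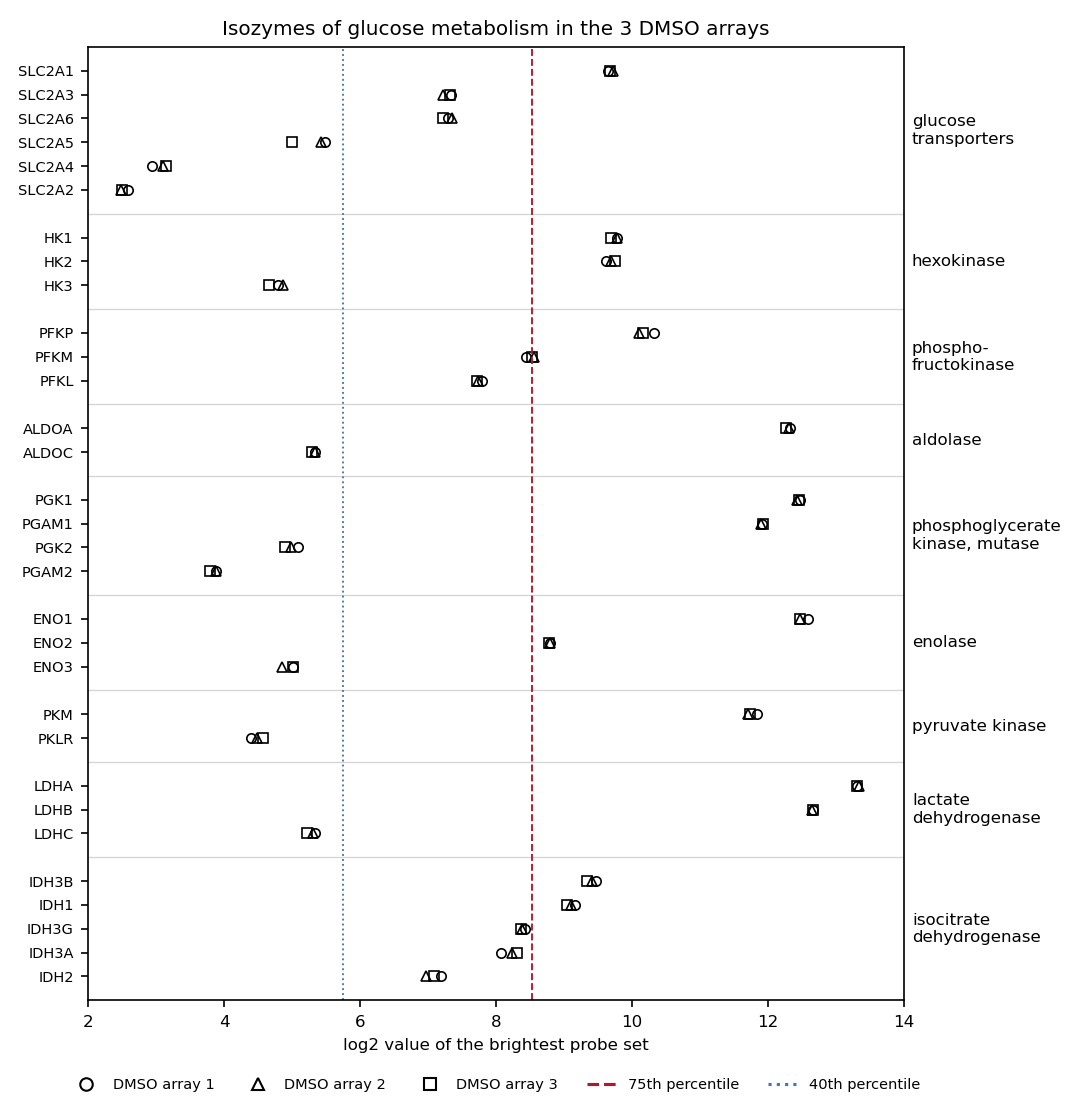
Log2 value of the brightest probe set of isozymes on each of the 3 DMSO arrays, grouped by reaction, with the levels of the 75th (dashed) and 40th (dotted) percentile. Ubiquitous isozymes such as ALDOA, PGK1, ENO1, PKM and LDHA lie right of the dashed line, and ALDOC, PGK2, PGAM2, ENO3, PKLR, LDHC and HK3 left of the dotted line. HK1 and HK2 overlap.

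Several genes of glucose entry had a like rank on their brightest probe sets. HK1 and HK2, the hexokinases, read 9.78, 9.78 and 9.68 and 9.61, 9.69 and 9.75, the 88.2nd and 87.6th percentiles, and their values overlapped, whereas HK3 lay at the 27.6th. SLC2A1, the basal glucose transporter, read 9.65, 9.73 and 9.68, the 87.6th, and SLC2A3 7.33, 7.22 and 7.32, the 58.5th. The other SLC2A1 probe set read at the 45.5th percentile. PFKP, PFKM and PFKL, the phosphofructokinases, lay at the 91.6th, 74.7th and 64.4th. FBP1, the opposing enzyme of gluconeogenesis, read 8.68, 8.76 and 8.77, the 77.6th, while G6PC1, PCK1 and SLC2A2, genes of liver glucose release, were the lowest at the 1.45th, 1.84th and 2.71st. In all, 16 of 45 members were in the top 25%, 9 of them in the top 5%, and 18 below the 40th percentile.

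Citric acid cycle and pyruvate dehydrogenase genes were mostly bright, with 19 of 26 in the top 25%. Only the testis gene PDHA2, at the 14.11th percentile, lay below the 40th. Of the 9 in the top 25% with several probe sets, 1 was there on every set, against 366 of 1445 among all genes. MDH2, mitochondrial malate dehydrogenase, read 11.35, 11.35 and 11.38, the 97.0th, MDH1 11.06, 11.09 and 11.07, PDHB, a subunit of pyruvate dehydrogenase, 10.81, 10.92 and 10.88, and SDHD, a subunit of complex II, 10.80, 10.70 and 10.81. The other probe sets of MDH2, PDHB and SDHD lay at the 57.2nd, 90.9th and 6.55th percentiles. Of the isocitrate dehydrogenases, cytosolic IDH1 read 9.16, 9.10 and 9.05, the 81.7th percentile. Mitochondrial IDH2 read 7.19, 6.98 and 7.08, the 55.8th, and was the second lowest member before IDH3A at the 70.8th.

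Pentose phosphate, serine and one-carbon enzymes had 14 of 23 in the top 25%. TYMS, thymidylate synthase, read 12.43, 12.51 and 12.52, the 99.2nd percentile, TALDO1 and TKT of the pentose pathway 11.29, 11.27 and 11.24 and 11.22, 11.03 and 11.07, and MTHFD1 10.76, 10.86 and 10.89. In serine synthesis the first enzyme was the dimmest: PHGDH read 6.54, 6.58 and 6.37, the 48.6th, and the next enzymes PSAT1 and PSPH lay at the 79.1st and 82.3rd. The mitochondrial enzymes SHMT2 and MTHFD2 lay at the 90.5th and 92.1st percentiles, and cytosolic SHMT1 was the lowest of the list at 3.56, 3.67 and 3.66, the 13.03rd, before CBS at the 18.9th and GLDC at the 28.8th.

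Amino acid enzymes and carriers had 16 of 38 in the top 25%. ODC1, the first enzyme of polyamine synthesis, read 11.22, 11.25 and 11.31, the 96.7th percentile. The carriers SLC7A1, of arginine, and SLC7A5, of large neutral amino acids, read 11.21, 11.25 and 11.26 and 11.17, 11.13 and 11.05, and OAT, ornithine aminotransferase, 11.07, 11.05 and 11.06. ASNS, asparagine synthetase, read 10.66, 10.66 and 10.55, the 94.1st, and GLUL, glutamine synthetase, 9.93, 9.90 and 9.87, the 89.5th, although the mean of its 3 sets would place it at the 68.4th. Liver enzymes were the lowest, with TDO2, OTC and KMO at the 1.94th, 3.60th and 5.89th.

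Lipid genes had 18 of 54 in the top 25% and 17 below the 40th percentile. Beside CAV1, the brightest were ELOVL5 and ELOVL6, which lengthen fatty acids, at 11.01, 11.08 and 11.05 and 10.49, 10.53 and 10.53, and ACLY, which makes cytosolic acetyl-CoA, at 10.82, 10.81 and 10.88. FASN, fatty acid synthase, read 8.54, 8.49 and 8.47, the 74.6th, and SCD, the desaturase, 9.87, 9.63 and 9.40, the 87.3rd, with an SD of 0.238. The mean of the 4 SCD sets would place it at the 64.9th. FABP5, the epidermal fatty acid binding protein, read 9.62, 9.68 and 9.75, the 87.6th, while FABP3, FABP4 and FABP1 lay at the 26.6th, 26.1st and 1.35th. FABP1, PLA2G4A and PTGS2, the inducible cyclooxygenase, were the lowest of the list, the latter pair at the 3.82nd and 6.28th.

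Redox enzymes were among the brightest metabolic genes, with 28 of 45 in the top 25% and 12 in the top 5%. TXN, thioredoxin, read 12.26, 12.29 and 12.37, the 99.03rd percentile, PRDX1 12.23, 12.26 and 12.23, GPX1 12.09, 12.11 and 12.04 and PRDX6 11.96, 11.90 and 11.90. TXNIP, which binds thioredoxin, read 11.06, 10.94 and 10.91, the 95.7th, and NQO1, a quinone reductase, 10.86, 10.89 and 10.94, the 95.4th. All 5 peroxiredoxins listed lay at or above the 96.2nd percentile, with PRDX2 the lowest of them. CYP1B1, a target of the aryl hydrocarbon receptor, read 10.50, 10.60 and 10.72, the 94.0th, and CYP1A1, another target, 5.16, 5.38 and 5.21, the 33.8th. The lowest enzymes were ALDH1A1, ADH1B and GPX2, at the 5.29th, 12.3rd and 24.6th.

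The fixed set held 4 genes tied to the series' topic of hypoxia, Hsp90 and chaperone-mediated autophagy. HIF1A, the oxygen-regulated subunit of hypoxia-inducible factor, read 12.09, 12.14 and 12.10, the 98.8th percentile. LAMP2, a lysosomal membrane protein of which a splice form serves chaperone-mediated autophagy, read 10.23, 10.08 and 10.05, the 91.1st. HSP90AA1 and HSP90AB1, the cytosolic Hsp90 chaperones, read 12.86, 12.90 and 12.95 and 12.09, 12.06 and 12.06, the 99.6th and 98.7th percentiles. The splice forms of LAMP2 cannot be told apart here. Genes known as hypoxia-induced spread widely in rank. Among them, PDK1, ANGPTL4 and PFKFB4 lay at the 42.95th, 42.3rd and 28.5th percentiles. LDHA, VEGFA, ADM and P4HA1 lay at the 99.9th, 89.1st, 87.5th and 80.9th.

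**Figure D5:**
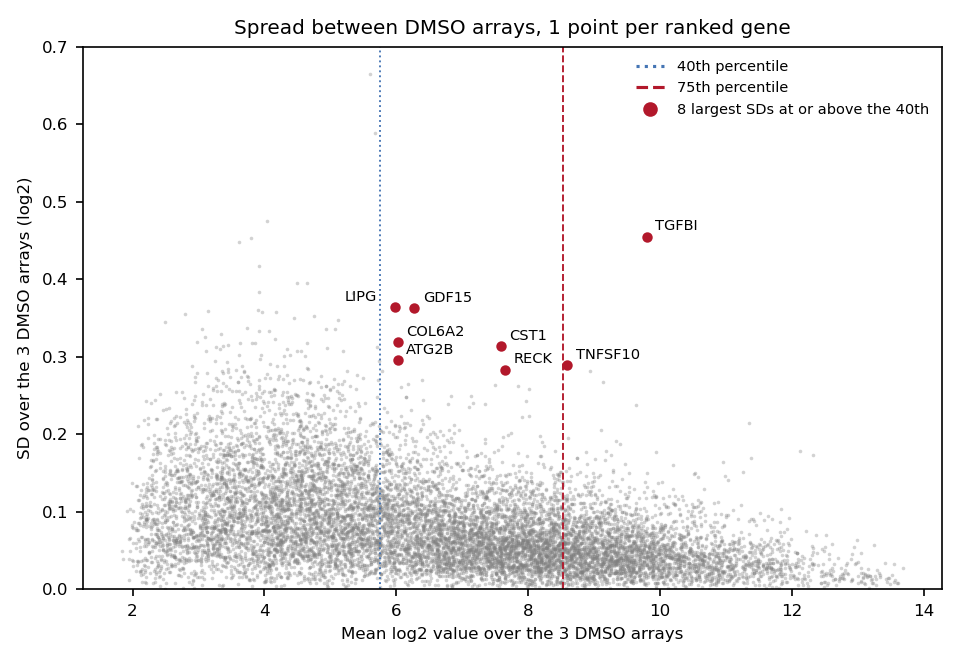
SD over the 3 DMSO arrays against the mean log2 value, 1 point per ranked gene. The 8 named genes (red) have the largest SDs among genes at or above the 40th percentile (dotted line), and TGFBI at 0.455 lies above all other genes of the top 25% (right of the dashed line).

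Differences between the arrays were largest for a few genes. Among genes at or above the 40th percentile, TGFBI, a matrix protein induced by TGF-beta, had the largest SD, 0.455, with 10.33, 9.57 and 9.51. LIPG, endothelial lipase, read 6.37, 5.92 and 5.65, GDF15, a stress cytokine, 6.58, 6.37 and 5.87, and COL6A2, a collagen VI chain, 6.39, 5.80 and 5.87. CST1, a secreted cystatin, read 7.94, 7.48 and 7.34, and TNFSF10 8.92, 8.40 and 8.45. All 6 were highest on replicate 1, whereas ATG2B, an autophagy gene, with 5.70, 6.09 and 6.28, was lowest there and RECK, a membrane-anchored protease inhibitor, with 7.60, 7.39 and 7.95, was highest on replicate 3. Below the 40th percentile 2 genes had an SD over 0.5: TFF1, an estrogen-responsive secreted peptide, with 6.34, 5.51 and 5.20, and SCD5, a desaturase, with 5.33, 5.11 and 6.36. These 2 were chosen after their values were seen.

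Replicate 1 was the highest array for many genes of some lists. Over all 7178 genes at or above the 40th percentile, it was highest for 33.0%. In the luminal list it was highest for 9 of 11 such members, among cytokine receptors for 22 of 30 and among matrix genes for 29 of 40, where its median deviation from the gene's mean was 0.0672 on the log2 scale. It was highest for 8 of 28 G protein-coupled receptors and for 7 of 25 citric acid cycle genes. Of the control pairs whose difference is printed next, all but 18S rRNA had their smallest difference between ends, in size, on this array. Other probe sets for the spikes dap and thr also had it there, but other sets for lys and phe had it on replicate 3. For lys those read 5.60, 5.63 and 5.60 at the 5′ end and 6.59, 6.73 and 6.53 at the 3′ end. The 5′ minus 3′ difference of ACTB was -0.92, -1.35 and -1.26 on replicates 1, 2 and 3. For the poly-A spike dap, added before labelling, it was -2.09, -2.88 and -2.50, and for the spike thr -2.35, -3.01 and -2.64. Smaller differences were read for GAPDH, at -0.21, -0.24 and -0.22, and for the spike lys, at -0.285, -0.383 and -0.341. The spike phe had 0.0587, 0.114 and 0.167, whereas 18S rRNA had 1.59, 1.55 and 1.52, the largest on replicate 1. The part of these differences between ends in the levels on replicate 1 was not tested. Leaving out replicate 1 changed the band of none of the 67 genes of a fixed set. Among the 868 measured list genes, it changed membership in the top 25% for 3 and below the 40th percentile for 4.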

How the data were processed

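The deposited values are probe set summaries of Affymetrix arrays, taken as log2 from their range; the log base, background correction, summarisation, normalization between arrays and array design are not stated in the labels used. Per the labels' protocols, total RNA from a column kit was amplified, and the biotin-labelled product was hybridized. The table held 22277 probe sets, 62 of them controls. A platform annotation gave 1 symbol to 19064, several to 1043 and none to 2108, and only the first kind was used. Of these, 19052 matched a RefSeq gene record, 12 did not, and 0 symbols were changed.

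A gene's level is the mean of its brightest probe set over the 3 DMSO arrays, and its percentile is the mid-rank among all genes. Taking the brightest set favours genes with many: the median percentile was 42.5 for genes with 1 set, 57.9 with 2 and 67.1 with 3 or more. The 23 lists held 957 genes, of which 868 were measured, and the other genes were not analysed here. The members and lists were chosen with earlier results of these data known. Named were the 15 brightest genes, the 4 highest and up to 3 lowest members of each list, the 8 genes with the largest SD at or above the 40th percentile, every integrin, kinase and nuclear receptor in the top 25%, and a fixed set of which 67 were measured; other genes were named after their values were seen. Arrays carry no read depth, and their number limits the precision. The ranking was checked on simulated data. Alternatives were another choice or the mean of probe sets, probe sets without a shared-sequence suffix, quantile normalization, median centring (for the spread between arrays only), linear means, all probe sets, dim genes left out and each array left out. Python 3.11.15, pandas 2.3.3, numpy 2.4.6 and matplotlib 3.10.9 were used.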

Additional observations from a re-analysis of the deposited data

How the results depend on the processing

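No paired analysis was possible because 1 group was described and no result comes from a test. Counts of list members in the top 25% that moved by more than 1.5 times were as follows. With the mean over each gene's probe sets, fibroblast genes had 1 (0 as reported), organ-restricted genes 0 (1), receptor tyrosine kinases 2 (6), nuclear receptors 1 (3) and cytokines 1 (3). Ranked among all probe sets, nuclear receptors had 5. With genes below the 40th percentile left out, leukocyte and organ-restricted genes had 0 each, nuclear receptors and cytokines 1 each, G protein-coupled and Frizzled receptors 4 (9), growth factors 16 (25), proteases 12 (21), matrix genes 13 (21), citric acid cycle genes 10 (19) and lipid genes 8 (18), since fewer genes are ranked there. Of the 67 genes of the fixed set, 15 changed their band (top 25%, below the 40th percentile, between) with the mean over probe sets and 9 without shared-sequence probe sets. In the latter setting, percentiles fell from 99.03 to 2.75 for ITGB1, from 96.9 to 5.25 for FN1, from 94.9 to 32.9 for THBS1, from 86.3 to 36.98 for EGFR, from 87.6 to 48.9 for SLC2A1 and from 43.9 to 31.9 for ESR1, where the probe sets left were others. None of the 67 changed its band with the brightest set by all 12 arrays, quantile normalization, linear means or 1 array left out.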

Other observations

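Further gene families were listed after the values were seen, and are given as values only. Of 11 annexins, calcium-dependent membrane-binding proteins, 8 were in the top 25% of the ranking. ANXA2 read 13.16, 13.16 and 13.13 on replicates 1, 2 and 3, the 99.8th percentile, and all 3 of its probe sets lay at or above the 99.7th. ANXA1 read 12.53, 12.50 and 12.51, and ANXA9 and ANXA13 lay at the 20.2nd and 9.85th. The S100 family, small calcium-binding proteins, was divided, with 6 of 16 in the top 25% and 7 below the 40th percentile. S100A6 read 13.31, 13.34 and 13.30, the 99.9th percentile, and S100A10, a partner of ANXA2, 12.91, 12.92 and 12.90, the 99.6th. S100A8 and S100A9, which form calprotectin in myeloid cells, lay at the 13.4th and 5.09th.

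Of 23 antigen presentation genes, 13 were in the top 25% and 1 below the 40th percentile. In the class I pathway, TAP1, PSMB10 and TAP2 ranked lowest, at the 74.9th, 64.7th and 61.1st percentiles. B2M, the light chain of class I molecules, read 12.74, 12.71 and 12.73, the 99.4th percentile. HLA-B read 12.52, 12.25 and 12.20 and HLA-C 12.32, 12.01 and 12.02, both highest on replicate 1. The class I genes are near-identical in part, so their probes can bind one another's transcripts. CD74, the class II invariant chain, read 9.25, 9.0 and 8.99, the 81.5th percentile. The class II chain HLA-DRA read 7.89, 7.63 and 7.64, the 64.1st, while CIITA, the activator of class II genes, lay at the 22.5th on the brightest of its 3 probe sets. Replicate 1 was the highest array for 18 of the 22 antigen presentation genes at or above the 40th percentile, and the part of the controls' 5′ to 3′ difference in this was not tested.

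Of 19 tetraspanins, membrane organisers found on extracellular vesicles, 9 were in the top 25%. CD63 read 11.69, 11.69 and 11.65, CD9 11.27, 11.27 and 11.26, and CD81 10.96, 10.88 and 10.95, the 97.9th, 96.7th and 95.5th percentiles, whereas the leukocyte members CD53 and CD37 lay at the 25.6th and 11.2nd. Of 10 cystatins, protease inhibitors, 3 were in the top 25%. The salivary forms CST4, CST2 and CST1 read 9.24, 8.86 and 8.70, 8.13, 7.799 and 7.61, and 7.94, 7.48 and 7.34, each highest on replicate 1 and lowest on replicate 3. These 3 genes are close paralogs, so their probes may share signal.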
